A study of Mus musculus with 7 samples.

Results

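Class II antigen presentation was examined through 8 genes, taken as a fixed list from their gene symbols and found among the 32285 genes of each of 7 single-cell RNA libraries of mouse liver. All 8 were measured in every library. The libraries were made with a droplet kit that reads the 3′ end of a transcript and tags each molecule with a unique molecular identifier (UMI), so values are UMIs summed over the cells of a cell class in a library, given per 1000000 UMIs of all genes in those cells (CPM).

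GEO's labels describe every library alike, as liver of a hepatoblastoma mouse model, and give no groups, so each library is described on its own and no test was run between sets of libraries. The study describes healthy livers and tumors. It gives NEJ709, NEJ723, NEJ634 and NEJ687 as tumors, which was not used to group the libraries. That model, ABC-Myc, carries Alb-Cre, in which Cre recombinase is driven by the albumin promoter of hepatocytes, and CAG-MYC, in which Cre removes a stop cassette so that human MYC is made from the CAG promoter. The mice were C57BL/6J, and littermates lacking one or both alleles served as controls. Genotype, age and sex of the single libraries are not in the labels. The description of NEJ709 carries the name NEJ634, so the library titled NEJ709 is named by its title here.

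MHC class II molecules are pairs of an alpha and a beta chain that show peptides from taken-up protein to CD4 T cells. The pair is assembled with the invariant chain Cd74, which fills the groove and guides it to the endosome, where H2-DM exchanges the last piece of Cd74 for a peptide and H2-DO restrains H2-DM. The genes are switched on together by the coactivator Ciita, most strongly in dendritic cells, B cells and macrophages, and in liver the resident macrophages and sinusoidal endothelial cells have been described as presenting cells too. C57BL/6 mice carry the b haplotype, which does not transcribe H2-Ea, so the H2-Eb1 chain lacks its usual partner. H2-Ea was not found by symbol among the genes measured.

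Of the 8 genes, H2-Aa encodes the alpha chain of I-A (GRCm38, chr17:34282744-34287823, minus strand) and H2-Ab1 its beta chain (chr17:34257689-34269419). H2-Eb1 encodes the beta chain of I-E (chr17:34305867-34316674). H2-DMa (chr17:34119541-34139101) and H2-DMb1 (chr17:34153072-34160230) encode the chains of the peptide exchanger, and H2-Oa (chr17:34092340-34095234) the alpha chain of its regulator. These 6 lay within 224.3 kb of chromosome 17. Cd74 and Ciita are on other chromosomes, Ciita at chr16:10480059-10528418. All genes other than H2-Aa are on the plus strand, and the 8 are annotated as protein coding.

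The promoters of class II genes are known for a shared pair of short elements, the X box and the Y box, on which Ciita is assembled through other factors. A promoter window of 250 bases before and 50 after the start was held in the RefSeq table (GRCm38.p6) for 5 of the 8 members, in 6 windows. No window was held there for H2-Ab1, Cd74 or Ciita. The letters CNNGNAAC, searched on both strands as a loose form of the X box, were found in 39.1% of 32851 windows of this length, and the Y box letters GATTGG, which hold the reverse complement of CCAAT, in 16.1%. The X letters followed on the same strand within 60 bases by the Y letters were found in 0.855% of all windows (281), and in 4 of the 5 members, H2-Aa, H2-Eb1, H2-DMb1 and H2-Oa. H2-DMa had no window with both in that order, and the search says nothing of which factors bind. The 130 bases before the start are shown for H2-Aa and H2-Eb1. Of the members with both in order, these had a RefSeq start that was also the gene start in the coordinates above. Capitals mark the X letters and then the Y letters, which lie 27 bases apart in H2-Aa (chr17:34287824-34287953, minus strand) and 26 bases apart in H2-Eb1 (chr17:34305737-34305866, plus strand).
H2-Aa: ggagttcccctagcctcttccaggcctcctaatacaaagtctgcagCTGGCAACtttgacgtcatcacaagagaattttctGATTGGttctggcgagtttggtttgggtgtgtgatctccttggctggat
H2-Eb1: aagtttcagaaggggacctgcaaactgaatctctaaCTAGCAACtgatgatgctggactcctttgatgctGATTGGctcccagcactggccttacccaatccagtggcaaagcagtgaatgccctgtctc

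Cell classes were set from marker genes that did not include any member, and are called "-like" because no reference cells were used. Of 72542 analysed cells, 471 were conventional dendritic-like (20 to 91 per library), 328 plasmacytoid dendritic-like (pDC-like, with 20 or more in 5 libraries), 3217 B-like (54 to 1139), 5257 macrophage-like (50 to 1947), 1593 monocyte-like (64 to 366), 6329 endothelial-like and 3096 T/NK-like. The unnamed clusters held 31693 cells (43.7%), of which 13013 were in NEJ709, where they made up 93.4% of the library. Total UMIs per library ran from 40214395 to 132485391 and median UMIs per analysed cell from 2112 to 4612. Barcodes called as cells in 2 or more libraries made up 2.63% of the analysed cells, at most 192 in a pair of libraries. Of those analysed in both libraries, 160 of 181 had the same class label for NEJ654 and NEJ677. The numbers were 92 of 107 for NEJ654 with NEJ687 and 88 of 96 for NEJ677 with NEJ687. Every other pair had a lower share, at most 61 of 98 for NEJ709 with NEJ723. Whether such barcodes are the same cells was not tested. Leaving them out changed none of 4 counts of libraries that were computed again. These were on conventional dendritic-like cells as the highest class, B-like over macrophage-like, macrophage-like over monocyte-like and endothelial-like over T/NK-like cells. Summed levels moved to 0.877 to 1.03 times in the 5 highest classes and 0.716 to 2.07 times in the others. The classes were checked against their markers. Conventional dendritic-like pools held 889 to 1772 CPM of 7 markers of conventional type 1 dendritic cells, against 102 to 220 in B-like pools. Markers of type 2 and migratory dendritic cells did not set the class apart, with 234 to 712 CPM of the first beside 178 to 753 in T/NK-like and 806 to 1213 in pDC-like pools, and 86.9 to 845 of the second beside 225 to 618 in B-like pools. B-like pools held 5122 to 7187 CPM of 8 B cell markers, against 7.80 to 101 in conventional dendritic-like pools. B-like pools also held 192 to 5729 CPM of plasma cell markers and 550 to 12192 CPM of erythroid markers, whose part in their level was not tested. Ranges that follow a single value in parentheses are 95% limits, exact Poisson for a level and Clopper-Pearson for a percentage, and they hold counting error alone.

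Conventional dendritic-like cells had the highest summed level of the 8 genes in 7 of 7 libraries, and B-like cells the next in 7 of 7. The summed level in conventional dendritic-like cells was 40637 CPM in NEJ638 (40062 to 41218), 40189 in NEJ687, 38571 in NEJ654, 34492 in NEJ677, 31500 in NEJ634, 28228 in NEJ709 and 25557 in NEJ723 (25138 to 25982). The intervals of NEJ638 and NEJ687 overlap, and the lowest library stood 1.59-fold below the highest, the smallest spread of any class present in all libraries. In B-like cells it was 18590 CPM in NEJ654, 17296 in NEJ677, 14981 in NEJ687, 10039 in NEJ638, 8772 in NEJ709, 8766 in NEJ634 and 3232 in NEJ723. B-like cells thus spread 5.75-fold between libraries. The ratio of conventional dendritic-like to B-like cells within a library ran from 1.99 to 7.91, with a median of 3.22, and the pair of intervals lay apart in 7 of 7 libraries.

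**Figure D1:**
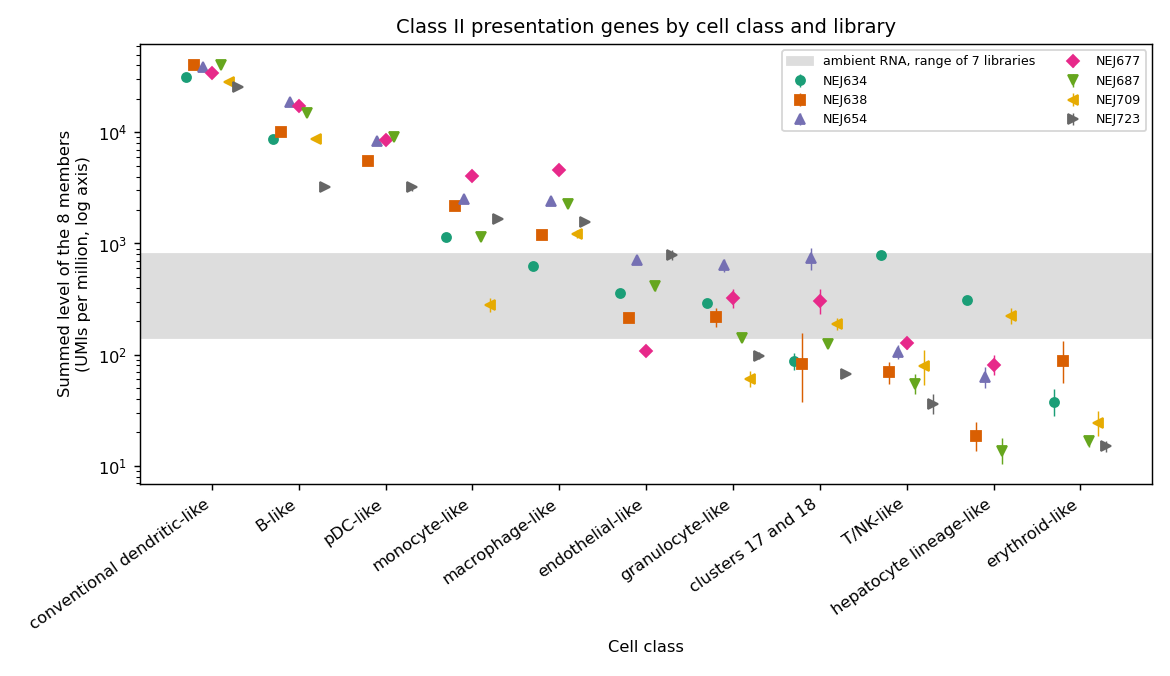
Summed level of the 8 genes (CPM, log axis) in each cell class with 20 or more cells, by library; error bars are exact 95% Poisson intervals and the grey band spans the ambient level of the 7 libraries, 140 to 798. The 7 conventional dendritic-like pools sit between 25557 and 40637, above every B-like pool (3232 to 18590).

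pDC-like cells followed B-like cells in the 5 libraries that held at least 20 of them. Their summed level was 9066 CPM in NEJ687, 8571 in NEJ677, 8317 in NEJ654, 5521 in NEJ638 and 3217 in NEJ723. B-like cells were up to 2.24 times as high (median 1.82), and in NEJ723 the intervals of B-like (3147 to 3319) and pDC-like cells (2993 to 3454) overlapped.

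Macrophage-like and monocyte-like pools lay lower and did not keep an order between them. The macrophage-like level was 4580 CPM in NEJ677, 2402 in NEJ654, 2275 in NEJ687, 1556 in NEJ723, 1210 in NEJ709, 1195 in NEJ638 and 625 in NEJ634. The monocyte-like level was 4065 in NEJ677, 2529 in NEJ654, 2184 in NEJ638, 1645 in NEJ723, 1139 in NEJ634, 1133 in NEJ687 and 279 in NEJ709. Macrophage-like cells were higher in 3 of 7 libraries (NEJ677, NEJ687 and NEJ709), and the intervals overlapped in NEJ654 and NEJ723. B-like cells were above macrophage-like cells in 7 of 7 libraries, by at least 2.08-fold with a median of 7.25. Different clusters held these classes in different libraries, so a level also reflects which cells a library held. In NEJ634 most macrophage-like cells came from clusters P00 and P03, in NEJ723 from P10, in NEJ638 from P21, in NEJ654 and NEJ677 from P19 and P20, in NEJ687 from P09 and in NEJ709 from P03, P09 and P10. Monocyte-like cells came mostly from P05 in NEJ634, NEJ687, NEJ709 and NEJ723, from P12 in NEJ638 and from P18 in NEJ654 and NEJ677. Clusters P02, P13, P15 and P16 (619, 460, 260 and 600 cells) had 9 or 10 of 10 macrophage markers raised but stayed unnamed. They are not in the levels given here. P13 held 369 cells of NEJ723, a library with 285 macrophage-like cells.

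Levels in free RNA set the scale for the other classes. The ambient profile was read from barcodes at ranks 45000 to 90000 by UMIs. It held the 8 genes at 140 CPM (NEJ723) to 798 CPM (NEJ677), with a median of 689. In NEJ634, 68463 barcodes not called as cells by size alone held at least 500 UMIs. The ambient ranks of NEJ634 thus reached barcodes as large as analysed cells, and ratios to its ambient level are less certain. Free RNA gives UMIs in cells that do not express a gene. Conventional dendritic-like pools stood 40.9 to 183 times above the ambient level of their own library, B-like pools 12.2 to 32.2 times and pDC-like pools 10.7 to 23.0 times. Macrophage-like pools stood 0.872 to 11.1 times the ambient level, above 1 in 6 of 7 libraries, and monocyte-like pools 0.405 to 11.8 times, also above 1 in 6 of 7. T/NK-like cells, which lack class II in mice, were at 0.106 to 1.09 times the ambient level, and granulocyte-like, hepatocyte lineage-like and erythroid-like pools and clusters 17 and 18 were all below 1. This holds for the sum and not for each gene. In granulocyte-like cells of NEJ723, H2-DMa was at 44.2 CPM beside an ambient 10.1, and Cd74 at 25.6 beside 58.2. Clusters 17 and 18 were joined as 1 class because 7 of 7 markers of Epcam epithelium were raised in each over all libraries. This did not hold in NEJ687, where the 7 markers together were at 23.6 CPM, beside a median of 2605 over libraries. They are given by number, since cluster 17, with 3216 of their 3257 cells, was led by Ctrb1, Try4, Clps, Cela2a and Reg1, genes of the exocrine pancreas, and had no Epcam epithelial marker among its 10 leading genes. In macrophage-like pools the B cell markers stood at 0.569 to 2.10 times their own ambient level, and in monocyte-like pools at 0.0842 to 0.642 times. Their part in the macrophage-like level was not tested.

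**Figure D2:**
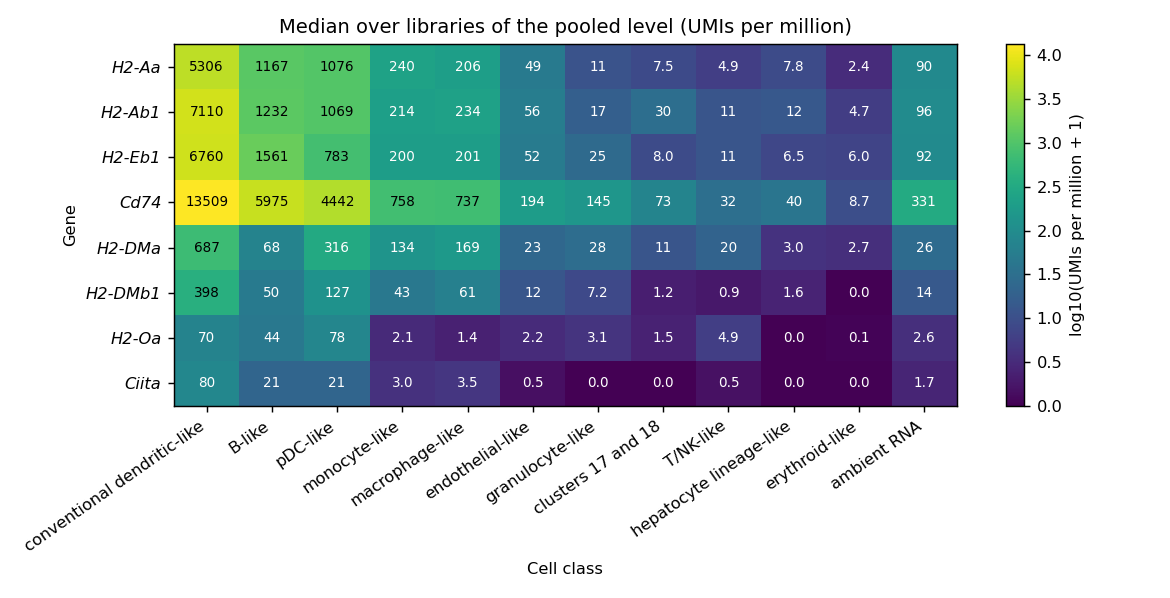
Median over libraries of the pooled level of each gene (number in each cell, CPM) by cell class, coloured by log10 of the level plus 1. H2-Aa, H2-Ab1, H2-Eb1, Cd74, H2-DMa, H2-DMb1 and Ciita are highest in conventional dendritic-like cells, and the H2-Oa medians of pDC-like (78.2, over 5 libraries) and conventional dendritic-like cells (70.2, over 7) rest on different libraries and give no order.

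Among conventional dendritic-like, B-like and pDC-like cells, the genes of the classical chains followed the order of the sum in all libraries but NEJ723. There all 3 were lower in B-like than in pDC-like cells, with intervals apart for H2-Aa only. Among lower classes the order could differ from that of the sum. H2-Ab1, for example, was higher in macrophage-like than in monocyte-like cells in 5 of 7 libraries, and the sum in 3. H2-Aa, the I-A alpha chain, was at 7201 CPM in conventional dendritic-like cells of NEJ638, 5380 in NEJ677, 5348 in NEJ687, 5306 in NEJ654, 5177 in NEJ634, 4460 in NEJ709 and 4227 in NEJ723. In B-like cells it ran from 297 in NEJ723 to 2326 in NEJ677 (median 1167), in pDC-like cells from 461 to 1313 (median 1076), in macrophage-like cells from 75.3 to 601 (median 206) and in T/NK-like cells from 0.769 to 144 (median 4.90). The conventional dendritic-like and B-like ranges of H2-Aa do not overlap.

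H2-Ab1, the I-A beta chain, was at 8621 CPM in conventional dendritic-like cells of NEJ638, 7795 in NEJ654, 7728 in NEJ687, 7110 in NEJ677, 6982 in NEJ634, 5528 in NEJ709 and 4647 in NEJ723. B-like cells held 358 to 2489 CPM (median 1232) and pDC-like cells 419 to 1384 (median 1069). Here too the lowest conventional dendritic-like library was above the highest B-like library.

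H2-Eb1, the beta chain of I-E, is made without a partner chain in this strain. It was at 10344 CPM in conventional dendritic-like cells of NEJ638, 6950 in NEJ654, 6878 in NEJ687, 6760 in NEJ677, 6300 in NEJ634, 5575 in NEJ709 and 4633 in NEJ723. NEJ638 stood above the other libraries, whose range was 4633 to 6950. B-like cells held 347 to 2819 CPM (median 1561) and pDC-like cells 393 to 817 (median 783). Of the UMIs of the 3 classical chains, H2-Eb1 took 34.1 to 39.5% in conventional dendritic-like cells, 31.2 to 40.1% in B-like cells and 23.2 to 31.0% in pDC-like cells, so the pDC-like range lay below the conventional dendritic-like one. For H2-Aa the order was the reverse, with 36.2 to 40.1% in pDC-like and 26.5 to 31.3% in conventional dendritic-like cells.

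Cd74, the invariant chain, differed less between conventional dendritic-like and B-like cells than the classical chains did. It was at 18878 CPM in conventional dendritic-like cells of NEJ687, 16845 in NEJ654, 13731 in NEJ677, 13509 in NEJ638, 12037 in NEJ634, 11539 in NEJ709 and 10865 in NEJ723. In B-like cells it was at 10841 in NEJ654, 9498 in NEJ687, 9224 in NEJ677, 5975 in NEJ638, 5488 in NEJ709, 5075 in NEJ634 and 2110 in NEJ723. The ratio of these classes was 1.49 to 5.15 for Cd74 (median 2.10) and at least 2.86 for H2-Ab1 (median 5.43). Accordingly Cd74 made up 53.3 to 65.3% of the members' UMIs in B-like cells, 48.9 to 57.7% in pDC-like cells and 33.2 to 47.0% in conventional dendritic-like cells, and the B-like and conventional dendritic-like ranges do not overlap. The ambient share was 41.6 to 50.2%.

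The member genes of the exchanger H2-DM, H2-DMa and H2-DMb1, departed from the order of the classical chains. H2-DMa was at 799 CPM in conventional dendritic-like cells of NEJ654, 706 in NEJ723, 694 in NEJ687, 687 in NEJ677, 552 in NEJ709, 484 in NEJ634 and 450 in NEJ638. B-like cells held 303 in NEJ677, 292 in NEJ654, 202 in NEJ687, 68.3 in NEJ638, 65.7 in NEJ709, 60.7 in NEJ634 and 47.9 in NEJ723. Macrophage-like cells held 72.3 to 241 (median 169), above B-like cells in 4 of 7 libraries (NEJ634, NEJ638, NEJ709 and NEJ723), 2 of them with intervals apart. H2-DMb1, its partner, was at 362 to 615 CPM in conventional dendritic-like cells (median 398), at 44.1 to 135 in macrophage-like cells (median 61.3) and at 12.4 to 86.6 in B-like cells (median 50.3). B-like cells were below macrophage-like cells for H2-DMb1 in 7 of 7 libraries, with intervals apart in 4. This is the reverse of their order for the classical chains and Cd74. It does not extend to H2-DMb2, a close copy that is not a member. The class medians of H2-DMb2 were 83.9 CPM in B-like, 8.46 in pDC-like and 2.57 in macrophage-like cells. B-like cells were also below pDC-like cells for H2-DMa and H2-DMb1 in 5 of 5 libraries, with intervals apart in 3 for each gene. Together H2-DMa and H2-DMb1 made up at most 2.25% of the members' UMIs in B-like cells and 2.05 to 4.18% in conventional dendritic-like cells. They made up 3.38 to 8.02% in pDC-like cells, 7.90 to 18.9% in macrophage-like cells and 5.71 to 44.6% in monocyte-like cells. The highest of these shares, in monocyte-like cells of NEJ709, rested on 177 UMIs of all members. H2-DMb2 is not counted in these shares.

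H2-Oa, the alpha chain of the regulator H2-DO, was low in macrophage-like and monocyte-like pools. It was at 170 CPM in B-like cells of NEJ654, 168 in NEJ677, 139 in NEJ687, 43.9 in NEJ634, 42.0 in NEJ723, 38.3 in NEJ638 and 14.1 in NEJ709, the last from 3 UMIs. pDC-like cells held 63.4 to 119 CPM (median 78.2) and conventional dendritic-like cells 38.0 to 138 (median 70.2). These medians cover 5 and 7 libraries, and within the 5 libraries with both, conventional dendritic-like cells were higher in 3 (NEJ638, NEJ654 and NEJ677), as were B-like cells over pDC-like cells in 3 (NEJ654, NEJ677 and NEJ687). Macrophage-like cells held at most 2.19 CPM and monocyte-like cells at most 4.07, beside an ambient level of 0.394 to 4.25. In NEJ723 monocyte-like cells were above the ambient level of their own library, at 3.12 CPM from 8 UMIs (1.35 to 6.15) beside 0.755. In macrophage-like cells of NEJ638 none of 1158017 UMIs was H2-Oa, of which 3, the limit set here for a count of 0, would be 2.59 CPM. H2-Oa was the member whose order between conventional dendritic-like and B-like cells was not kept, with B-like cells higher in 5 of 7 libraries, although the intervals lay apart in only 1 library in each direction.

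The share of H2-Oa among the UMIs of H2-Oa, H2-DMa and H2-DMb1 separated the classes more clearly than its level. It was 41.0% in B-like cells of NEJ723 (33.6 to 48.8), 34.9% in NEJ687, 33.3% in NEJ634, 32.1% in NEJ654, 30.1% in NEJ677, 24.4% in NEJ638 and 13.6% in NEJ709, where 22 UMIs gave an interval of 2.91 to 34.9%. The share was 12.1 to 28.6% in pDC-like cells, 3.44 to 9.97% in conventional dendritic-like cells, at most 1.56% in macrophage-like cells and at most 1.73% in monocyte-like cells, beside 2.44 to 8.57% in the ambient profile. The B-like range lies wholly above the conventional dendritic-like range. H2-DMb2, whose highest class median was in B-like cells, is not counted in this share, and the share with it was not computed. In T/NK-like cells the share was 8.70 to 41.1% in the 5 libraries with at least 20 UMIs of the 3 genes. In NEJ723 their H2-Oa level was 8.85 CPM from 23 UMIs, beside 0.755 in the ambient profile, while their Cd74 level was 7.69 beside 58.2.

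**Figure D3:**
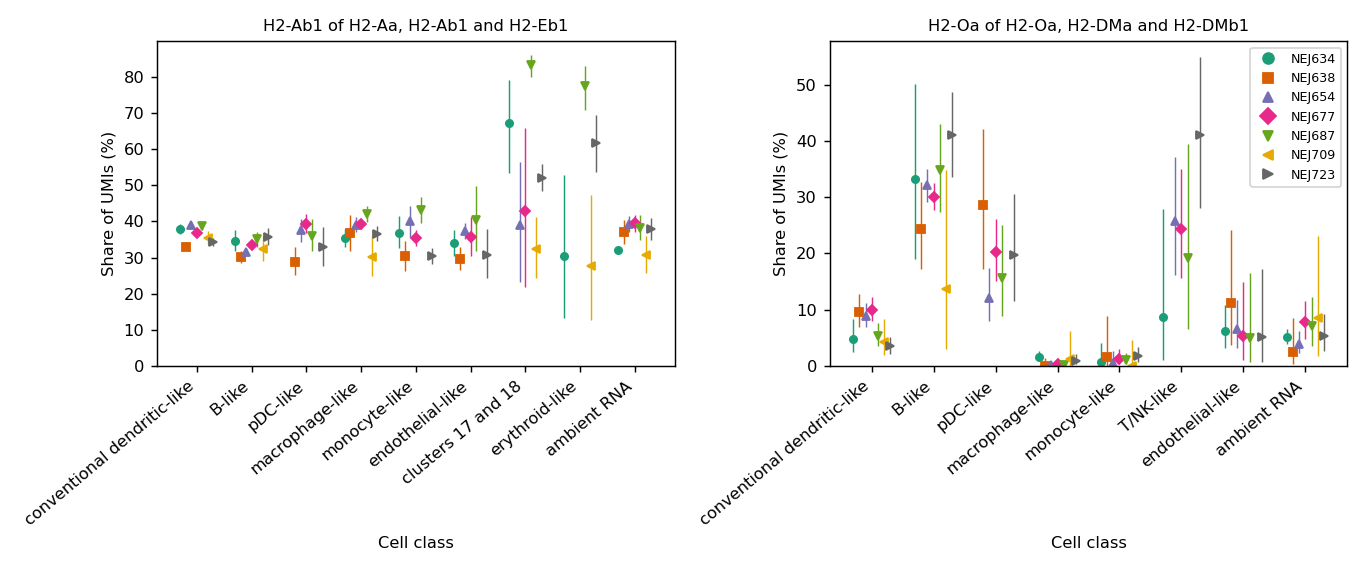
Share of H2-Ab1 among the UMIs of the 3 classical chain genes (left) and of H2-Oa among those of H2-Oa, H2-DMa and H2-DMb1 (right), in percent, by cell class and library for pools with at least 20 such UMIs; error bars are exact 95% Clopper-Pearson intervals. B-like cells sit at 13.6 to 41.0% on the right, against at most 9.97% in conventional dendritic-like cells, and on the left clusters 17 and 18 of NEJ687 stand out at 83.3%.

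Ciita, the coactivator, was counted in few molecules. It was at 134 CPM in conventional dendritic-like cells of NEJ677, 133 in NEJ709, 122 in NEJ654, 79.6 in NEJ723, 79.3 in NEJ634, 42.6 in NEJ638 and 41.6 in NEJ687, from 16 to 76 UMIs per pool. The lowest libraries for Ciita, NEJ638 and NEJ687, were the highest for the summed level. In B-like cells it ran from 9.58 in NEJ638 to 109 in NEJ677 (median 21.0), in pDC-like cells from 0 to 23.9 and in macrophage-like cells from 0 to 19.0. In pDC-like cells of NEJ723 no Ciita UMI was seen in 236544, of which 3, the limit set here for a count of 0, would be 12.7 CPM. Conventional dendritic-like cells were above B-like cells in 7 of 7 libraries, with intervals apart in 5, by 1.22 to 5.88-fold.

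Shares of cells with a UMI were compared on a common depth. By the share of cells with a UMI of any member, conventional dendritic-like cells were highest in 4 of 7 libraries only, and not in NEJ654, NEJ677 and NEJ687. After each cell was thinned to 500 UMIs, Cd74 was seen in 62.6 to 95.4% of conventional dendritic-like cells (median over libraries 85.0%), 44.7 to 97.6% of B-like cells (78.8%), 34.2 to 84.8% of pDC-like cells (72.9%), 11.6 to 45.0% of macrophage-like cells (21.0%), 4.69 to 19.6% of monocyte-like cells (14.4%) and 1.05 to 10.3% of endothelial-like cells (2.79%). T/NK-like cells, the comparison that should lack the gene, gave 0 to 3.92% (1.47%). Without thinning the shares were 70.3 to 97.7% in conventional dendritic-like cells, 59.8 to 99.3% in B-like cells, 32.4 to 71.6% in macrophage-like cells and at most 11.8% in T/NK-like cells, at median depths of 2508.0 to 8607.5, 1277.0 to 3355.5, 1158.0 to 10668.0 and 1643.0 to 7725.0 UMIs. After thinning, macrophage-like and monocyte-like cells were above T/NK-like cells of the same library in 7 of 7 libraries, while the ranges of endothelial-like and T/NK-like cells overlap. T/NK-like cells did not carry the same background, since the share of ambient RNA, estimated from markers of other classes, was 10.2 to 31.5% in them, 45.7 to 100% in macrophage-like and 10.9 to 53.9% in monocyte-like pools. The estimate was capped at 100%, so that value is not a measured share. The part of ambient RNA in the shares of cells was not tested.

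The spread of the molecules over cells was read for macrophage-like and monocyte-like pools with measures chosen after the levels had been seen. The 10 cells with the most member UMIs held 83.2% of them in monocyte-like cells of NEJ638, 81.8% in NEJ634, 74.8% in NEJ654, 62.1% in NEJ709, 61.4% in NEJ677, 59.2% in NEJ687 and 55.5% in NEJ723. In macrophage-like pools the 10 cells held 13.4 to 43.8% in 6 libraries and 83.7% of 553 UMIs in NEJ709, which had 50 such cells. This share falls as a pool grows, and macrophage-like pools were larger in 5 of 7 libraries, so it does not compare the classes. In NEJ709, with 50 and 64 cells, and in NEJ723, with 285 and 366, it was higher in macrophage-like cells in the first and in monocyte-like cells in the second. The median macrophage-like cell was at 2258 CPM in NEJ677, 1549 in NEJ687, 1324 in NEJ654, 614 in NEJ638, 352 in NEJ709, 266 in NEJ634 and 255 in NEJ723. The median monocyte-like cell was at 412 CPM in NEJ677, 377 in NEJ654, 234 in NEJ687, 175 in NEJ634 and NEJ723, 142 in NEJ709 and 0 in NEJ638. By the median cell, macrophage-like cells were therefore higher in 7 of 7 libraries, where the pooled level had them higher in 3. The median cell was not corrected for ambient RNA or depth. It lay below the ambient level in macrophage-like cells of NEJ634 (717) and NEJ709 (689), and in monocyte-like cells of all libraries but NEJ723. In NEJ687 the median depth was 1288.0 UMIs in macrophage-like and 5666.0 in monocyte-like cells. The part of ambient RNA and depth in this order was not tested. Cells in which the members took over 1% of UMIs were 0 to 8.16% of monocyte-like cells, and in the 6 libraries other than NEJ709 they held 60.4 to 81.5% of the members' UMIs there.

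**Figure D4:**
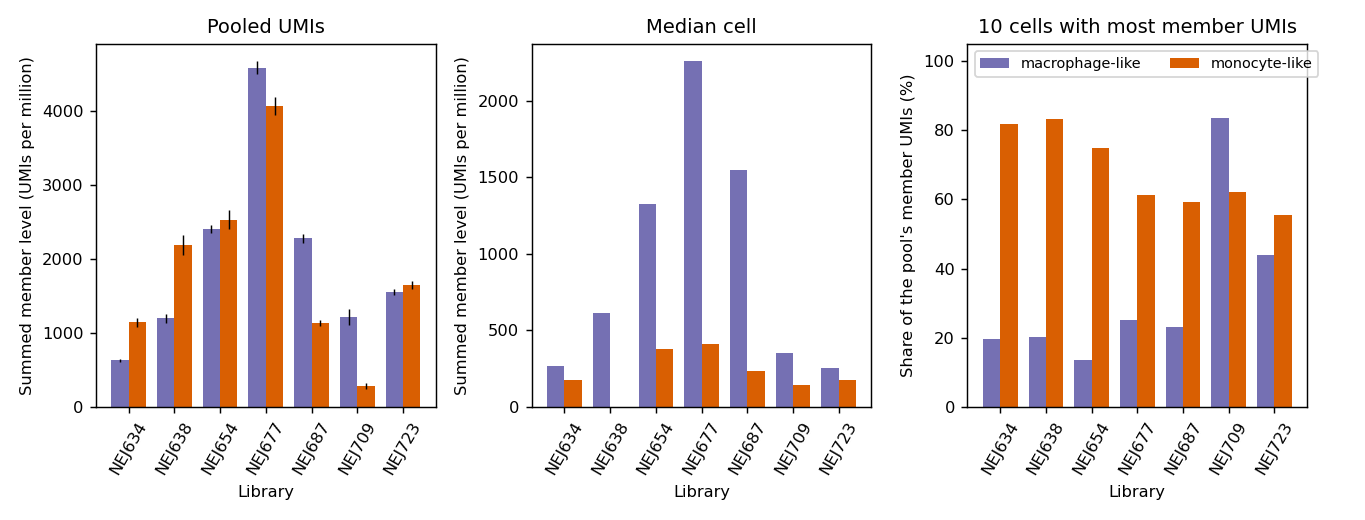
Macrophage-like and monocyte-like cells by library: summed level of the 8 genes in pooled UMIs with exact 95% Poisson intervals (left), in the median cell (middle, both in CPM), and the share of the pool's member UMIs in its 10 cells with the most (right, percent). The median macrophage-like cell is higher in 7 of 7 libraries, without correction for ambient RNA or depth. The monocyte-like pools draw 55.5 to 83.2% of their UMIs from 10 cells, a share that also depends on the number of cells in the pool.

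Endothelial-like cells were below the ambient level in all libraries but NEJ723. The estimated share of ambient RNA in these pools was 14.7 to 91.5% (median 31.6%), so a level below the ambient one is not by itself at background. Most endothelial-like cells came from cluster 04 in NEJ634, 14 in NEJ638 and 22 in the others. Cluster 32 (1569 cells, 967 of them in NEJ654 and 525 in NEJ677) had 10 of 10 endothelial markers raised but stayed unnamed. It is not in the levels given here. Endothelial-like pools also held 216 to 4069 CPM (median 1369) of 10 macrophage markers, where T/NK-like pools held 27.0 to 625, and their part in the level was not tested. Their summed level was 786 CPM in NEJ723, 711 in NEJ654, 418 in NEJ687, 362 in NEJ634, 215 in NEJ638 and 107 in NEJ677, and NEJ709 had too few cells. It was above the T/NK-like level in 4 of 6 libraries (NEJ638, NEJ654, NEJ687 and NEJ723) and above the ambient level only in NEJ723, where it was 5.62 times the ambient level and 10 of 54 cells held 99.1% of the UMIs. The median endothelial-like cell held no member UMI in 6 of 6 libraries. In NEJ654, 33 cells of cluster 14 were at 20759 CPM and held 88.7% of the class's member UMIs, while the other 1193 cells were at 82.9 CPM. Those 33 cells also held 20 UMIs of Xcr1 and 22 of Clec9a, markers of type 1 dendritic cells, where the other cells held 1 and 18. Of the 33 cells, 5 had over 1% of their UMIs in the 8 genes. Their part in the endothelial-like level of the other libraries was not tested. Without these 33 cells, endothelial-like cells were above T/NK-like cells in 3 of 6 libraries. In NEJ638, 6 of 2183 cells held 79.7%, and the others were at 43.8 CPM.

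T/NK-like cells showed the same in a single library. Their summed level was 780 CPM in NEJ634 and 36.2 to 126 in the other 6 libraries. In NEJ634, 2 of 106 cells held 93.4% of the UMIs, and the other cells were at 53.1 CPM, inside the range of the other libraries.

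B-like cells that carried precursor genes were low for the 8 genes. Vpreb1 and Igll1 encode the surrogate light chain of pre-B cells, Rag1 and Dntt act in the rearrangement of antigen receptor genes, and Il7r is the receptor of an early growth factor. These 5 genes were chosen after the low B-like level of NEJ723 had been seen. Cells with a UMI of any of them made up 50.6% of B-like cells in NEJ723 (257 cells), 29.7% in NEJ634, 26.0% in NEJ687, 22.2% in NEJ709, 11.3% in NEJ638, 1.84% in NEJ654 and 1.49% in NEJ677. Their summed level of the 8 genes was 573 CPM in NEJ723 (528 to 619), 203 in NEJ709, 1141 in NEJ638, 1308 in NEJ634, 1561 in NEJ687, 6404 in NEJ677 and 7551 in NEJ654. In the other B-like cells it was 8003 in NEJ723 (7779 to 8232), 11890 in NEJ638, 11989 in NEJ634, 12068 in NEJ709, 17449 in NEJ677, 18776 in NEJ654 and 21956 in NEJ687. The cells with a precursor UMI were lower in 7 of 7 libraries, but numbered 19 in NEJ634, 17 in NEJ677, 14 in NEJ654 and 12 in NEJ709, and in the 3 libraries with at least 20 of them, 38 in NEJ687, 62 in NEJ638 and 257 in NEJ723. Without them NEJ723 was still the lowest library.

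Among the members, the difference within NEJ723 was 37.8 against 761 CPM for H2-Aa, 43.3 against 891 for H2-Eb1, 322 against 5316 for Cd74 and 1.84 against 49.6 for Ciita, in cells with and without a precursor UMI. For H2-Ab1 it was 117 against 790, for H2-DMa 30.4 against 79.4, for H2-DMb1 4.61 against 26.5 and for H2-Oa 15.7 against 89.3. Fcer2a, the low-affinity IgE receptor of mature B cells, was at 5.33 CPM in B-like cells of NEJ723, 56.3 in NEJ709, 79.1 in NEJ638, 81.0 in NEJ634 and 296 in NEJ677. NEJ723 was the lowest library for Fcer2a as for the summed level, but the next lowest was NEJ687, whose summed level was the third highest in all B-like cells and the highest in those without a precursor UMI. NEJ654 lay next below NEJ677.

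**Figure D5:**
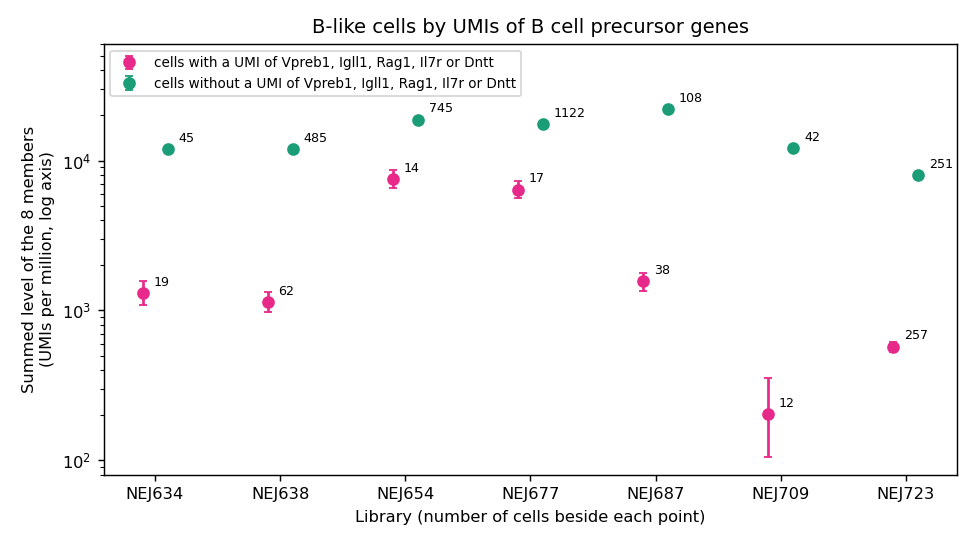
Summed level of the 8 genes (CPM, log axis) in B-like cells with and without a UMI of Vpreb1, Igll1, Rag1, Il7r or Dntt, by library; error bars are exact 95% Poisson intervals and the number beside each point counts the cells. The cells with such a UMI are lower in 7 of 7 libraries, and in NEJ723 they are 257 cells at 573 against 251 cells at 8003.

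Subsets of conventional dendritic-like cells were told apart by clustering them again. Over all libraries, 218 cells were type 1-like at 38175 CPM for the 8 genes, 133 were type 2-like at 31006, 12 were like migratory dendritic cells at 27618 and 108 stayed unnamed at 15961. The unnamed subclusters, of 20 and 88 cells, had mean marker log2 folds of -0.95 to -0.02 over the other dendritic-like subclusters for all 3 subsets. Unnamed cells numbered 36 in NEJ723, 26 in NEJ634, 23 in NEJ687 and 3 to 10 in the other libraries. They are part of the class levels given above. All 20 cells of cluster P06, named in this class, were of NEJ634. Type 1-like cells are known for cross-presentation and type 2-like cells for presentation on class II. The type 1-like level was 45553 CPM in NEJ687 and 33836 in NEJ723, and the type 2-like level 36766 and 19669. In NEJ638, type 2-like cells were higher (43413, 41774 to 45099) than type 1-like cells (40298, 39679 to 40923), while type 1-like cells were higher in NEJ654, NEJ677, NEJ687 and NEJ723. The order of the subsets was therefore not the same in the 5 libraries with at least 10 cells of each, in 3 of which type 2-like cells numbered 17 or 18.

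H2-DMa was higher in type 2-like cells in 5 of these 5 libraries, with intervals that overlapped in each, from 460 against 456 CPM in NEJ638 to 934 against 683 in NEJ687. The values pooled over libraries that follow also reflect which libraries gave the cells of a subset. H2-Ab1 was at 8055 in type 1-like, 5639 in type 2-like and 3269 in migratory-like cells. H2-DMb1 was at 528 in type 1-like, 472 in type 2-like and 11.3 in migratory-like cells, the last from 1 UMI. The summed level of the unnamed cells differed between libraries, with 31548 CPM in NEJ634, 15874 in NEJ654, 5828 in NEJ723 and 3537 in NEJ687.

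H2-Ab1 was not in proportion to the other chains in clusters 17 and 18 of 3 libraries and in erythroid-like cells of 2, pools whose summed level was below the ambient one. In clusters 17 and 18 of NEJ687, nearly all of them cells of cluster 17, H2-Ab1 gave 484 of 581 UMIs of the 3 classical chains (83.3%), where the ambient profile of that library gave 38.3% (34.9 to 41.9). The share was 67.3% in NEJ634 (37 of 55 UMIs, 53.3 to 79.3) and 52.1% in NEJ723 (389 of 746, 48.5 to 55.8), above the ambient shares of 32.1% and 37.8%. In NEJ709 it was 32.3% and near the ambient 30.7%, in NEJ654 38.9% of 36 UMIs beside an ambient 39.3%, and in NEJ677 42.9% of 21 UMIs beside 39.5%. In erythroid-like cells the share was above the ambient one in NEJ687 (77.4%, 70.9 to 83.1) and NEJ723 (61.8%, 53.6 to 69.6). It was 27.6% in NEJ709 (8 of 29 UMIs) beside 30.7%, and 30.4% in NEJ634 (7 of 23 UMIs) beside 32.1%. In conventional dendritic-like, B-like, pDC-like and macrophage-like cells the share lay between 28.8 and 42.1%. The level itself was low, 57.7 CPM for H2-Ab1 beside 5.25 for H2-Aa and 6.32 for H2-Eb1 in clusters 17 and 18 of NEJ687.

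The sources of the members' molecules in a library followed how many cells of each class it held as well as their level. Conventional dendritic-like cells were 0.144 to 1.30% of the cells of a library and gave 12.3 to 56.4% of its member UMIs (median 25.9%). B-like cells gave 49.6% in NEJ677, 45.1% in NEJ654, 24.8% in NEJ638, 16.0% in NEJ687, 15.2% in NEJ723, 5.13% in NEJ634 and 4.33% in NEJ709. Macrophage-like cells gave 1.28 to 17.4% and unnamed clusters 3.42 to 79.4%, the last in NEJ709. Over all analysed cells the summed level was 3451 CPM in NEJ654, 3243 in NEJ677, 1874 in NEJ638, 859 in NEJ709, 819 in NEJ634, 646 in NEJ687 and 461 in NEJ723. B-like cells were 10.4% of the cells of NEJ654, 15.4% of NEJ677, 8.14% of NEJ638, 0.388% of NEJ709, 0.377% of NEJ634, 1.89% of NEJ687 and 4.08% of NEJ723. Blood or lymphoid cells kept by the dissection cannot be told apart from cells of the liver tissue here.

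Partners of the pathway were read from a list of 18 genes, of which 15 were found by symbol, and described by class medians. The beta chain of the regulator and the paralogues of the members were highest in B-like cells, H2-Ob at 272 CPM beside 72.8 in conventional dendritic-like cells, H2-DMb2 at 83.9 beside 41.6 and H2-Eb2 at 14.1 beside 6.40. H2-DMb1 and H2-DMb2 are close copies, so reads of these genes may have been split or dropped between them. The genes of the endosomal machinery were highest elsewhere, Ctss, which cuts the invariant chain, at 1315 CPM in macrophage-like and 1314 in monocyte-like cells, the protease Lgmn at 1650 and the thiol reductase Ifi30 at 893 in macrophage-like cells, and the protease Ctsl at 1239 in pDC-like cells. Cd83, a maturation marker, was at 352 in conventional dendritic-like cells, and the costimulatory gene Cd86 at 155 in macrophage-like and 131 in conventional dendritic-like cells. March1, which encodes a ligase that removes class II from the surface, had its highest class median, 68.1, in conventional dendritic-like cells. Rfx5, Rfxank and Rfxap, subunits of the factor that binds the X box, had class medians of at most 50.4 and spread by 1.29 to 2.81 over 11 classes on the scale of log2(CPM + 1). On that scale the low level of these 3 genes limits their spread, so it was not set against that of the members.

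Class I genes present peptides from inside the cell in nearly all cell types. Over 9 such genes the log2 spread of class medians was 2.34 to 7.11 and over the members 6.31 to 10.62, ranges that overlap, since Psmb8 spread more than H2-Oa (6.31) and Ciita (6.33). H2-K1 and H2-D1, the heavy chains, were highest in T/NK-like cells (2193 and 1749 CPM), B2m, the light chain, in monocyte-like cells (1655), and Nlrc5, the class I coactivator, in T/NK-like cells (46.5). Psmb8 and Psmb9, subunits of the immunoproteasome, were highest in conventional dendritic-like cells (746 and 428), as were the peptide transporter genes Tap1 (106) and Tap2 (101). Tapbp was highest in pDC-like cells (222).

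The 8 members varied together over the 75 pools of a class in a library, as a description in which pools of a library share their depth and ambient RNA. Pearson's r of log2(CPM + 1) between pairs of members ran from 0.6 for H2-DMb1 with H2-Oa to 0.98 for H2-Aa with H2-Eb1, with a median of 0.82. H2-Oa had the lowest values, 0.6 to 0.75 with the other 7. Of 12909 genes of at least 20 CPM in a pool, the 10 outside the lists with the highest r to the members' mean were Fgd2 (0.87), Pkib (0.86), Rnase6, Cd180, Wdfy4 and Rubcnl (0.84 each), Pld4 and Ly86 (0.81 each), Btla (0.8) and Irf5 (0.78). Wdfy4 was also a marker used to name dendritic clusters, so its place follows in part from that. With a pseudocount of 10, 9 of these 10 genes were kept. Fgd2 was at 83.3 CPM in conventional dendritic-like, 55.4 in B-like, 51.3 in pDC-like and 70.0 in macrophage-like cells and at 0 in the median T/NK-like pool.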

How the data were processed

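The 7 libraries were read from the deposited matrices, in which the authors had counted UMIs per gene and barcode, with no normalisation and no cell filter. The file headers name Cell Ranger 4, the submitters' processing notes Cell Ranger 6.0 and the study's methods a 6.0 release run on introns as well, and the run behind the deposited counts was not settled. The genome build is not given in the sources used here, and coordinates are those of GENCODE M21 (GRCm38). The design text speaks of nuclei, the labels and the methods of cells.

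Barcodes were called as cells above the UMIs at percentile 99 among the 3000 largest, divided by 10, and by a Monte Carlo test of up to 20000 barcodes of at least 500 UMIs against the ambient profile (ranks 45000 to 90000, 10000 draws, adjusted p of 0.01). That limit was reached in NEJ634, NEJ709 and NEJ723. Of 87762 called cells, 81384 had over 500 UMIs and at most 20% mitochondrial UMIs, and the 8842 with the highest Scrublet scores were removed at 0.8% per 1000 cells. Cells were clustered with scanpy 1.11.5 (2000 variable genes, 40 components, 15 neighbours, Leiden resolution 1) without the members and both lists, and clusters were named from 19 marker sets by folds over other cells of the same library. Naming took a log2 fold averaging 1.5, a lead of 1 and 3 markers raised 2-fold at 10 CPM. Rules on doublet-like clusters and dendritic subsets were added, and these naming limits, including the fold within a library, were set after seeing the data. Class pools needed 20 or more cells, dendritic subsets in a library 10, and the precursor split of B-like cells had no minimum.

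The labels give no groups, so no test, mean or SD over libraries was made. The members, lists and tests were chosen with earlier results of these data known. The named genes were the 8 members, listed partners and class I genes over 100 CPM or at 0, and the 10 genes most like the members of at least 20 CPM in a pool. Genes named beyond that were chosen after their values were seen: the B cell precursor and maturity genes, Xcr1 and Clec9a, and the listed genes H2-DMb2, H2-Eb2, March1, Nlrc5, Rfx5, Rfxank and Rfxap. Steps were tested on simulated data. Python 3.11.15, numpy 2.4.6, pandas 2.3.3, scipy 1.17.1, igraph 0.11.9 and matplotlib 3.10.9 were used. Other data of the study were not used here.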

Additional observations from a re-analysis of the deposited data

How the results depend on the processing

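Of the counts of libraries, 4 were recomputed, those that follow, under 12 other settings and 3 more chosen after seeing the data. Conventional dendritic-like cells were highest in every library that could be compared under each of the 12, which were 4 of 4 libraries with only barcodes over the percentile rule and with classes set per cell from its own marker UMIs. By the share of cells with any member UMI at 500 UMIs, chosen after seeing the data, they were highest in 4 of 7, and not in NEJ654, NEJ677 and NEJ687. B-like cells were above macrophage-like cells in 3 of 3 libraries under the percentile rule. Macrophage-like cells were above monocyte-like cells in 5 libraries without doublet removal, at Leiden resolution 2 and by the mean over cells, in 1 of 6 with each library clustered on its own, in 6 of 6 with classes per cell from its own markers, and, chosen after seeing the data, in 7 by the median cell and by the share of cells with a member UMI. Endothelial-like cells were above T/NK-like cells in 6 of 6 libraries without doublet removal, in 2 of 6 at Leiden resolution 2 and with own markers, and in 0 by the median cell, where both medians were 0. The levels themselves moved more than these orders. In the 5 highest classes the summed level moved by over 1.5-fold in 7 of 26 pools with own markers (ratios 0.131 to 1.65), in at most 3 pools under each other of the 12 settings, and in 17 of 33 by the median cell. In the other classes it did so in 22 of 31 pools with own markers, 15 of 37 without doublet removal, 15 of 29 with each library on its own, 17 of 42 by the mean over cells and 36 of 42 with the ambient level subtracted. The cause of these changes was not tested. No paired analysis was possible because the labels give neither groups nor replicate numbers. Depth limits Ciita and H2-Oa most. In conventional dendritic-like pools 3 UMIs amount to 5.28 to 15.9 CPM, above the ambient Ciita level of 0.394 to 3.64.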
